A study of Saccharomyces cerevisiae with 12 samples.

Results

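Budding yeast cells without the single intron of MMS2 were compared with wild-type cells after 48 h of culture, across all genes. The comparison used 4 of the 12 libraries of the study: the mms2 intron deletion (mms2Δi strains #1 and #2, here mms2 strains 1 and 2) and the wild type (strains #1 and #2). Both genotypes were of the BY background and were grown to stationary phase in synthetic minimal medium (SD) with histidine, leucine, uracil, lysine and 2% glucose. Each library held the ribodepleted total RNA of 1 strain, and the 2 strains of a genotype were labelled as separate strains, so the p-values measure the spread between strains and cultures of these few samples. The other 8 libraries held the same genotypes in log phase and a ysf3 intron deletion in both phases. They entered the fit only to estimate the spread and for the tests of difference given near the end.

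MMS2 encodes a ubiquitin-conjugating enzyme variant that works with Ubc13 to build lysine-63-linked ubiquitin chains on PCNA, which direct error-free tolerance of DNA damage. Few yeast genes hold an intron, and many of those that do encode ribosomal proteins. In stationary phase, yeast that has used up its glucose represses ribosome production, respires non-fermentable carbon such as ethanol, and expresses the glyoxylate cycle and gluconeogenesis. The question of the comparison was what the loss of a single intron does to expression at that stage. The element that was deleted is shown first, as RefSeq gives it for the sacCer3 (R64) genome, chrVII:346809-346893 on the minus strand, 85 nt, with the 5′ splice site, the branch site and the 3′ splice site in capitals.
MMS2 intron: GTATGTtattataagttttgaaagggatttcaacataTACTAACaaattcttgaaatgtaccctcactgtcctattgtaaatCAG

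MMS2 itself (YGL087C, chromosome VII, 346406 to 346904, minus strand) was counted at 20.3 and 26.4 CPM in mms2 strains 1 and 2, against 21.9 and 21.5 CPM in wild-type strains 1 and 2. CPM stands for counts per 1000000 counts of the scaled library. The groups overlapped. The log2 fold change of 0.12 ± 0.17 did not pass the test (edgeR's quasi-likelihood test, Benjamini-Hochberg adjusted p = 0.669). Throughout, a log2 fold change is the mms2 deletion minus the wild type, and the value after ± is an approximate error, the size of the change over the square root of its F statistic. Reads were counted over the gene, with no separate value for the intron, so the counts do not test the deletion itself. YSF3, the other gene whose intron was removed in the study, had 3.16 and 3.26 CPM in the mms2 deletion, against 2.46 and 2.52 CPM in the wild type (0.37 ± 0.33, adjusted p = 0.476).

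The library totals were 5051438 and 15409749 counts in mms2 strains 1 and 2 and 4871513 and 14999029 counts in wild-type strains 1 and 2, so strain 1 was the shallower library in both genotypes. Wild-type strain 1 also stood apart in its mating type genes, most clearly in log phase. The labels give no mating type. In log phase the alpha-specific list summed to 27.2 and 29.8 CPM of the library total in mms2 strains 1 and 2. In wild-type strains 1 and 2 it summed to 2730 and 41.8. The a-specific list summed to 1790 and 1770 in the mms2 deletion, against 37.2 and 1800 in the wild type. By these genes wild-type strain 1 was of the alpha type, and wild-type strain 2 and both mms2 strains were of the a type. The wild-type group therefore held both mating types. At 48 h the 5 genes specific to alpha cells summed to 40.2 and 27.5 CPM of the library total in the mms2 deletion, against 136 and 48.1 in the wild type, and the 7 genes specific to a cells to 258 and 220, against 87.4 and 280. STE2, the alpha-factor receptor of a cells, had 59.2 and 70.5 CPM in the mms2 deletion, against 7.18 and 54.2 CPM in the wild type, and the alpha-factor gene MF(ALPHA)1 had 0.592 and 0.709 CPM against 11.9 and 0.44 CPM. None of the mating type genes that were tested passed in either list (4 alpha-specific and 5 a-specific). The part of mating type in the other results was not tested. The number of calls and the medians of several gene groups are given with and without wild-type strain 1. Reads left at ribosomal RNA loci were uneven within both genotypes: the mitochondrial 15S_rRNA had 2750 and 46.2 CPM in the mms2 deletion, against 4980 and 721 CPM in the wild type.

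Of 7126 genes, 6068 had enough counts to be tested, and of these 518 were higher (8.54%) and 127 were lower (2.09%) in the mms2 deletion, 645 in all (10.6%). At an unadjusted p under 0.05 there were 1916 genes (31.6%). The median log2 fold change of all tested genes was 0.04. All 645 called genes kept their direction when any 1 of the 4 libraries was left out, but the calls themselves rested on 2 libraries: 0 genes passed without wild-type strain 1 (smallest adjusted p = 0.0648, with 807 genes at an unadjusted p under 0.05), and 1 passed without mms2 strain 2, the succinate-fumarate carrier gene SFC1. The 645 genes were chosen with the same 4 libraries, so their kept direction was close to fixed in advance and is no separate support. Scaling by library totals shifted the median of all genes by -0.16, which left 315 genes higher and 279 lower, so that 53.0% of the called genes were higher, against 80.3% with the main scaling. Changes are relative to that scaling. Calls in a gene group scaled by library totals are read beside the 315 and 279 of 6068 genes.

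**Figure D1:**
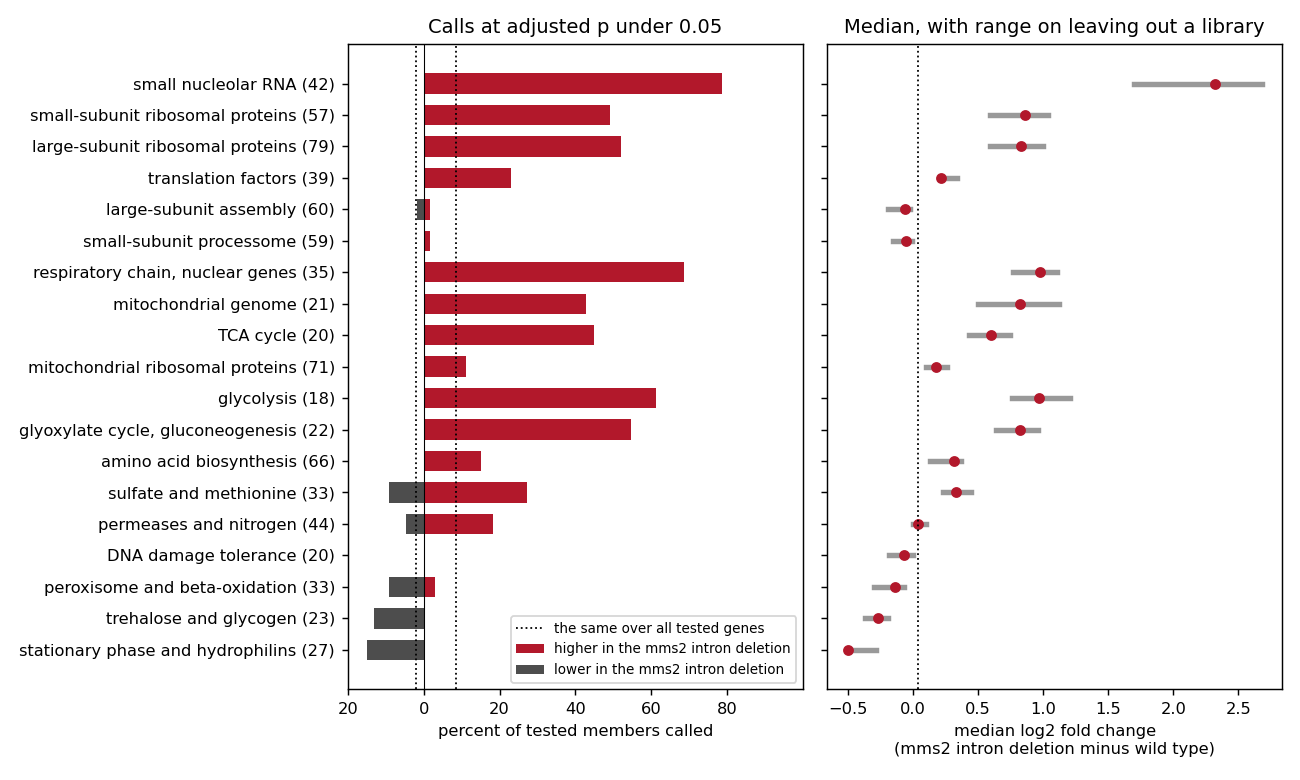
Share of the tested members of each gene group that was called higher (red) or lower (grey) in the mms2 intron deletion at 48 h (left, percent), and the median log2 fold change of the group with the range of that median when 1 library is left out (right). Numbers in brackets are tested members, and dotted lines are the values over all tested genes (8.54% higher, 2.09% lower, median 0.04).

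Small nucleolar RNAs (snoRNAs) made up 11 of the 12 highest genes named. They guide the modification of ribosomal RNA in the nucleolus, H/ACA box snoRNAs for pseudouridine and C/D box snoRNAs for ribose methylation, and a few take part in cutting the precursor of ribosomal RNA. Of 42 tested snoRNAs, 33 rose and 0 fell (median log2 fold change 2.32), beside 8.54% higher over all tested genes. The median was 1.93 without wild-type strain 1 and 1.70 without mms2 strain 2. In these bulk samples more RNA per cell and more cells that hold it cannot be told apart. In 40 of the 42 the 2 libraries of the mms2 deletion were both above the 2 of the wild type, beside 36.1% of all tested genes. All snoRNAs together took 9.41% and 11.6% of the counts in the mms2 deletion, against 4.64% and 5.76% in the wild type. The group means were 10.5 ± 1.53% and 5.20 ± 0.796% (SD, n = 2 each), a ratio of 2.02, which ran from 1.81 to 2.26 when 1 library was left out. A large part of these counts came from snR190, which did not pass (0.85 ± 0.35, adjusted p = 0.133 by edgeR). In the mms2 deletion snR190 held 45800 and 43100 CPM of 93800 and 126000 CPM over all tested snoRNAs. In the wild type it held 21700 and 27700 CPM of 42700 and 54400 CPM.

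The sequences of 4 snoRNAs are shown because they stood among the highest genes of the comparison and represent both classes. They are read from the R64 genome, 5′ to 3′ on the strand of the gene, with U written as T. Capitals mark the ACA box at the 3′ end of snR32 (chrVIII:381540-381727, plus strand) and snR49 (chrXIV:716120-716284, plus strand), and the C box (TGATGA) and D box (CTGA) of snR128 (chrX:139566-139691, minus strand) and snR70 (chrXVI:718887-719050, minus strand).
snR32: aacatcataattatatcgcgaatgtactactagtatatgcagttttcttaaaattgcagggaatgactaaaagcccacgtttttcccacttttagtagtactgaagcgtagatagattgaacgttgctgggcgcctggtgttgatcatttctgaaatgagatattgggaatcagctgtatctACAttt
snR49: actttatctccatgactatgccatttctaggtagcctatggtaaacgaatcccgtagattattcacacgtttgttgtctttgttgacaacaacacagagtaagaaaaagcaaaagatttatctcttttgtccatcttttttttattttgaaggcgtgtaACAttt
snR128: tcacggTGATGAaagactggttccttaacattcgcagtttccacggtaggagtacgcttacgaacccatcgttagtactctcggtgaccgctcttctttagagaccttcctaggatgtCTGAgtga
snR70: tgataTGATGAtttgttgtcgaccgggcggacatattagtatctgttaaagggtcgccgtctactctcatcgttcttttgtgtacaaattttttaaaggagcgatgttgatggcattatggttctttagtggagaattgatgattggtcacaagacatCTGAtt

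snR32, an H/ACA guide, had 147 and 489 CPM in mms2 strains 1 and 2, against 18.9 and 45.2 CPM in wild-type strains 1 and 2 (3.28 ± 0.53, adjusted p = 0.0139 by edgeR). The rule that named the highest genes took only groups that do not overlap. Strain 2 was the higher library for snR32 in each genotype. snR49, also an H/ACA guide, had 63.6 and 54.7 CPM in the mms2 deletion, against 3.21 and 10.1 CPM in the wild type (3.01 ± 0.66, adjusted p = 0.0257). snR128, known as U14 and needed to make 18S ribosomal RNA, had 297 and 338 CPM in the mms2 deletion, against 41.8 and 61.2 CPM in the wild type (2.61 ± 0.34, adjusted p = 0.0139). For snR128 and snR49 the mms2 strains were close to each other and far from both wild-type strains. snR70, a C/D guide, was counted at a low level, 7.31 and 13.7 CPM in the mms2 deletion, against 0.756 and 2.01 CPM in the wild type (2.77 ± 0.44, adjusted p = 0.0139). snR3, another H/ACA guide, had a change of 3.27 ± 0.72, with its mms2 libraries far apart, at 6.52 and 45.1 CPM, with 1.51 and 3.52 CPM in the wild type.

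The other snoRNAs among the 12 highest genes were snR5 (3.12 ± 0.54), snR63 (2.76 ± 0.45), snR37 (2.67 ± 0.45), snR46 (2.60 ± 0.47), snR17b (2.58 ± 0.44) and snR36 (2.52 ± 0.40). snR17b and its sister snR17a are the U3 snoRNA, the scaffold of the small-subunit processome. snR17a had 12600 and 23200 CPM in the mms2 deletion, against 2670 and 4790 CPM in the wild type (2.27 ± 0.37, adjusted p = 0.0139). snR45, which guides acetylation of 18S ribosomal RNA, was at 2.38 ± 0.31 with 16.6 and 22.8 CPM against 3.59 and 3.96 CPM. By class, 24 of 29 tested H/ACA snoRNAs rose with a median of 2.19, and 9 of 13 tested C/D snoRNAs with a median of 2.45. snR10, the H/ACA gene that lies beside MMS2 (chromosome VII, 345986 to 346230), was at 1.63 ± 0.45 (adjusted p = 0.045), below the median of the class.

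The 9 snoRNAs that did not pass held long members, sparsely counted members and others, such as snR8 and snR190 of 190 nt, that were neither. snR86, of 1004 nt, had 5050 and 7440 CPM in the mms2 deletion, against 6810 and 6160 CPM in the wild type (-0.05 ± 0.24). snR84, of 550 nt, had a change of -0.01 ± 0.25, and snR30, of 606 nt, which is needed for 18S processing, 0.81 ± 0.25 with an adjusted p = 0.0654. snR8 was at 0.17 ± 0.18, snR191 at 0.86 ± 0.27 and the C/D snoRNA snR190 at 0.85 ± 0.35. The other 3 that did not pass were the C/D snoRNAs snR18, snR39B and snR48, with at most 36 counts in any of the 4 libraries. A further 34 C/D snoRNAs of 78 to 109 nt had at most 5 counts in a library and were not tested, so the C/D class is seen here mainly through its longer members. Within a genotype, strain 2 had more of a snoRNA than strain 1 in 40 of 42 cases in the mms2 deletion and in 36 of 42 in the wild type. snR44 and snR191 lie inside introns of RPS22B and NOG2, and reads of the host and the snoRNA cannot be separated.

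**Figure D2:**
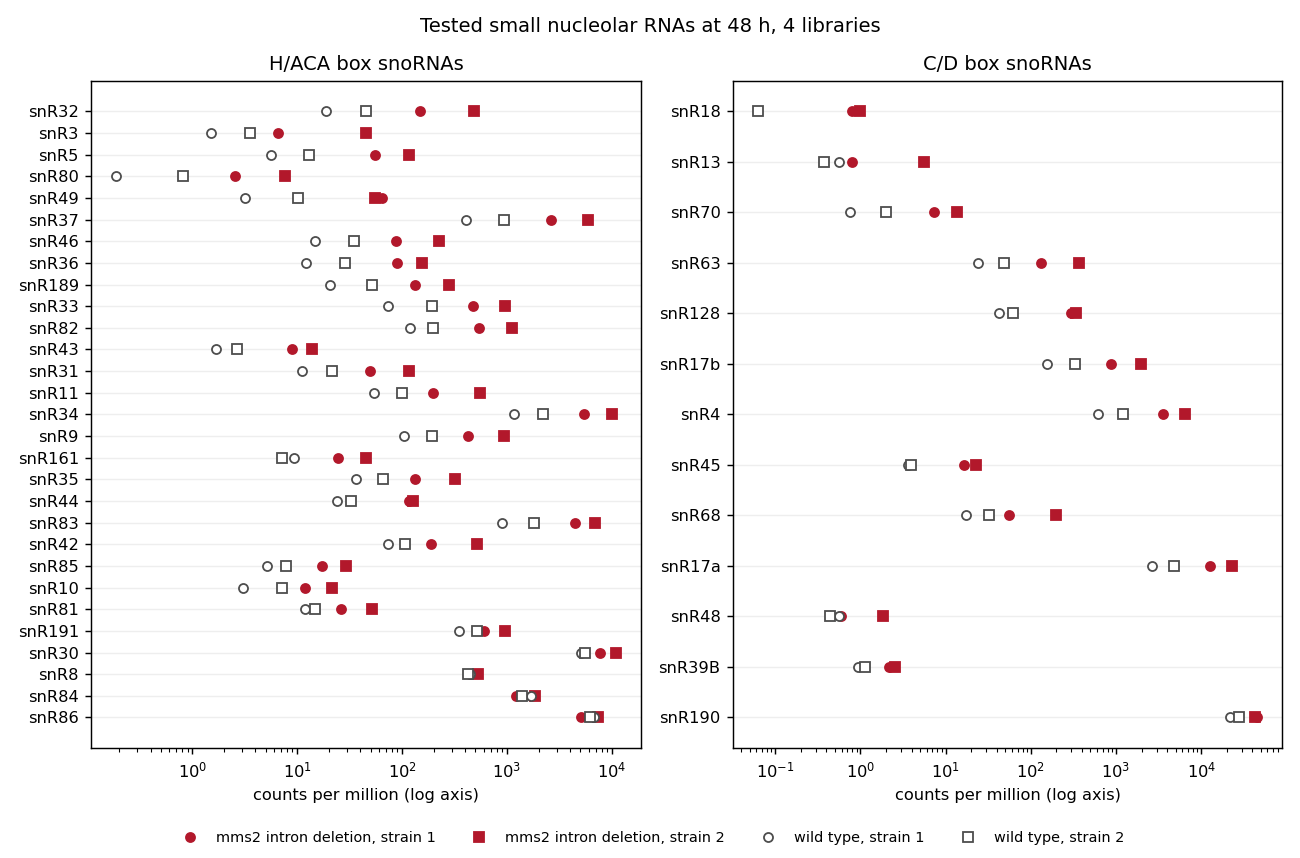
CPM (log axis) of each tested H/ACA (left) and C/D (right) snoRNA in the 4 libraries at 48 h, filled red for the mms2 intron deletion and open grey for the wild type, circles for strain 1 and squares for strain 2. Red points lie to the right of both open points in 40 of 42 snoRNAs, and a library with 0 counts (snR18 in wild-type strain 1) is not drawn.

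Of 9 other tested stable RNAs 4 rose and 0 fell, beside 8.54% higher and 2.09% lower over all tested genes. RPR1, the RNA of RNase P, which matures tRNA, had 164 and 276 CPM in the mms2 deletion, against 49.3 and 77.2 CPM in the wild type (1.79 ± 0.29, adjusted p = 0.0139). NME1, the RNA of RNase MRP, which cuts the precursor of ribosomal RNA, had 97.9 and 190 CPM in the mms2 deletion, against 25.7 and 45.2 CPM in the wild type (2.00 ± 0.36, adjusted p = 0.0152). The spliceosomal RNAs snR14 (U4) and snR7-L (the long form of U5) rose by 2.55 ± 0.57 and 1.96 ± 0.39. The 5 others of this group did not pass. Among the most abundant RNAs the counts went both ways: the signal recognition particle RNA SCR1 took 4.43% and 4.89% of counts in the mms2 deletion, against 3.03% and 3.18% in the wild type, while the U2 RNA LSR1 took 6.50% and 7.77% against 11.3% and 8.76%. Of 16 tested snoRNP proteins 1 rose, near the 8.54% over all tested genes. It was SNU13, shared by C/D snoRNPs and the U4 snRNP, at 39.9 and 52.6 CPM in the mms2 deletion, against 8.32 and 20.3 CPM in the wild type (1.62 ± 0.34, adjusted p = 0.0232).

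Ribosomal protein genes rose as well. In the small subunit 28 of 57 tested genes rose and 0 fell (median 0.86). In the large subunit 41 of 79 rose and 0 fell (median 0.83). Without wild-type strain 1 the medians were 0.62 and 0.59. The shares over all tested genes were 8.54% higher and 2.09% lower. Scaling by library totals left 23 of the 57 and 33 of the 79 higher and 0 lower. All 6068 tested genes then had 315 higher and 279 lower. The 90 tested ribosomal protein genes with an intron had a median of 0.82 with 46 higher, and the 46 without an intron had a median of 0.87 with 23 higher. They held in all 1.89% and 2.16% of the counts in the mms2 deletion, against 1.36% and 1.59% in the wild type. RPS29A, a small-subunit protein gene, had 10.1 and 12.5 CPM in the mms2 deletion, against 0.945 and 2.77 CPM in the wild type (2.40 ± 0.40, adjusted p = 0.0143). RPL30, a large-subunit protein that represses splicing of its own transcript, had 27.8 and 38.6 CPM in the mms2 deletion, against 4.54 and 11.1 CPM in the wild type (1.99 ± 0.34, adjusted p = 0.0143). ASC1, whose intron holds snR24, was at 1.29 ± 0.19 and RPS2 at 1.54 ± 0.28. RPL1A and RPL1B (1.94 ± 0.32 and 2.02 ± 0.33), which are near-identical copies, cannot be told apart with certainty.

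Factors that work with the ribosome rose in part, and factors that assemble it mostly did not. Over all tested genes 8.54% rose and 2.09% fell, or 315 and 279 of 6068 when scaled by library totals. Of 39 translation factor genes 9 rose and 0 fell (4 and 0 when scaled by library totals), among them EFT2 and EFT1 (1.17 ± 0.24 and 0.98 ± 0.22), near-identical genes for elongation factor 2, TEF2 (0.99 ± 0.22) for elongation factor 1A and HYP2 (0.98 ± 0.22) for eIF5A. The ribosome-bound chaperone genes SSB1 and SSB2, also near-identical, rose by 1.42 ± 0.22 and 1.09 ± 0.20. Of 60 genes for large-subunit assembly 1 rose (ARX1, 0.94 ± 0.18) and 1 fell (LOC1, -0.96 ± 0.26). Of 59 genes of the small-subunit processome 1 rose (SNU13) and 0 fell, and the medians of both groups were -0.06 and -0.05. Of 38 RNA polymerase subunit genes 3 rose and 1 fell (1 and 1 when scaled by library totals), near the 8.54% and 2.09% over all tested genes. RPB10 was at 1.5 ± 0.38 and RPB4 at -0.66 ± 0.18. Intron-containing genes outside the ribosome had 21 of 179 members higher and 3 lower with a median of 0.15. All tested genes had 8.54% higher and 2.09% lower with a median of 0.04. When scaled by library totals, 12 of the 179 were higher and 9 lower with a median of -0.02. All 6068 tested genes then had 315 higher and 279 lower with a median of -0.12. The actin gene ACT1 rose by 0.93 ± 0.19 and HNT1 by 1.27 ± 0.25, and the meiotic recombinase gene DMC1 fell by 1.79 ± 0.42. Of 75 spliceosome protein genes 1 rose (SMX2, 1.33 ± 0.35) and 2 fell (CUS2, -0.63 ± 0.16, and SPP381, -0.74 ± 0.20), while 7 fell when scaled by library totals.

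Genes of respiration formed the next group. Of 35 nuclear genes of the respiratory chain and ATP synthase 24 rose and 0 fell. Their median was 0.98, and 0.82 without wild-type strain 1. The shares over all tested genes were 8.54% higher and 2.09% lower. Scaling by library totals left 20 of the 35 higher and 0 lower, beside 315 and 279 of all 6068 tested genes. COR1, a core subunit of complex III, had 379 and 524 CPM in the mms2 deletion, against 151 and 206 CPM in the wild type (1.34 ± 0.19, adjusted p = 0.0139). RIP1, the Rieske iron-sulfur subunit of the same complex, had 60.8 and 94.8 CPM against 22.5 and 30.3 CPM (1.55 ± 0.23, adjusted p = 0.0139). ATP15 and ATP16, the epsilon and delta subunits of the ATP synthase rotor stalk, rose by 2.23 ± 0.33 and 1.39 ± 0.22, with ATP15 at 12.2 and 14.0 CPM in the mms2 deletion, against 2.65 and 2.89 CPM in the wild type. HAP4, the regulatory subunit of the Hap complex that activates respiratory genes, had 647 and 977 CPM in the mms2 deletion, against 327 and 368 CPM in the wild type (1.23 ± 0.21, adjusted p = 0.0143). In all these genes, which were picked among those called, the 2 strains of the mms2 deletion lay above the 2 of the wild type. So they did in 36.1% of all tested genes.

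Because HAP4 rose with genes it is known to act on, the sequence upstream of them was read. The Hap complex binds CCAAT boxes, searched here as TNATTGGT on both strands of the 400 bases that end 100 bases before the annotated start. The motif was present upstream of 14 of 35 respiratory chain genes (40%), 2 of 20 TCA cycle genes (10%), 5 of 22 glyoxylate and gluconeogenesis genes (22.7%) and 404 of 5632 tested nuclear protein-coding genes (7.17%). Among the genes that rose it stood upstream of 44 of 460 (9.57%), and among those that fell upstream of 13 of 122 (10.7%). Of the 14 respiratory chain genes with the motif 9 rose, where 24 of all 35 did, and of the 5 glyoxylate and gluconeogenesis genes with it 2 rose. A match is a stretch of letters and not a measured binding site. The stretches of COR1 (chrII:135840-135887, plus strand), RIP1 (chrV:106992-107039, minus strand) and ATP15 (chrXVI:29925-29972, minus strand) are shown with the motif in capitals, written on the strand that holds it, for the 3 genes with the smallest p among the 14.
COR1: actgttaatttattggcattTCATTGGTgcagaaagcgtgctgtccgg
RIP1: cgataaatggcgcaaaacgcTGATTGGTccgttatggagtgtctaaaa
ATP15: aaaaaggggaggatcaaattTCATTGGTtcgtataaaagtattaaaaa

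Inside the mitochondrion, 9 of 20 TCA cycle genes rose and 0 fell (median 0.60). The malate dehydrogenase gene MDH1 had 292 and 403 CPM in the mms2 deletion, against 164 and 170 CPM in the wild type (1.06 ± 0.17, adjusted p = 0.0139). KGD2, a subunit of 2-oxoglutarate dehydrogenase, rose by 1.17 ± 0.20, the aconitase gene ACO1 by 1.10 ± 0.25 and SDH4, a membrane anchor of succinate dehydrogenase, by 1.34 ± 0.28. Of 21 genes of the mitochondrial genome 9 rose and 0 fell, with a median of 0.82 that was 0.50 without mms2 strain 2. The 9 are not separate measurements, since BI2 and BI4 overlap COB and each other, AI5_ALPHA overlaps COX1 and Q0255 overlaps COX2, each on the same strand. COX3, a subunit of cytochrome c oxidase, had 4430 and 7010 CPM in the mms2 deletion, against 1430 and 2660 CPM in the wild type (1.48 ± 0.35, adjusted p = 0.0292), and OLI1, subunit 9 of the ATP synthase, had 866 and 1050 CPM against 283 and 468 CPM (1.35 ± 0.30, adjusted p = 0.0257). ATP8, another ATP synthase subunit, passed on few reads, with 18 and 60 counts in the mms2 deletion, against 3 and 3 counts in the wild type. Genes of the mitochondrial ribosome moved less: 8 of 71 rose and 0 fell (median 0.18), beside 8.54% higher over all tested genes. When scaled by library totals 5 of the 71 rose, beside 315 of all 6068 tested genes.

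The glyoxylate cycle and gluconeogenesis, which make sugar from acetate and ethanol, was higher in 12 of 22 genes and lower in 0. The median was 0.82 (0.64 without wild-type strain 1). The shares over all tested genes were 8.54% higher and 2.09% lower. Scaling by library totals left 10 of the 22 higher and 0 lower, beside 315 and 279 of all 6068 tested genes. SFC1 (YJR095W, chromosome X, 609773 to 610741), the mitochondrial carrier that exchanges cytosolic succinate for fumarate, had 156 and 167 CPM in the mms2 deletion, against 51.6 and 53.8 CPM in the wild type (1.61 ± 0.14). Its adjusted p = 0.00176 was the smallest of all genes by edgeR, and the strains of each genotype differed little. MLS1, malate synthase, had 1180 and 1320 CPM in the mms2 deletion, against 528 and 632 CPM in the wild type (1.11 ± 0.15, adjusted p = 0.0139), and ICL1, isocitrate lyase, 1330 and 1660 CPM against 458 and 801 CPM (1.25 ± 0.24, adjusted p = 0.0178). Of the enzymes that belong to gluconeogenesis alone, FBP1, fructose-1,6-bisphosphatase, had 60.4 and 86.7 CPM in the mms2 deletion, against 21 and 26.6 CPM in the wild type (1.62 ± 0.23), and PCK1, phosphoenolpyruvate carboxykinase, had 346 and 478 CPM against 187 and 207 CPM (1.07 ± 0.17, adjusted p = 0.0139 for both).

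The carbon source response element, read by the activators Cat8 and Sip4 and searched as CC, any base, TT, any base, A, any base and CCG over the same window and strands, stood upstream of 3 of these 22 genes (13.6%), against 30 of 5632 genes (0.533%). Among the nuclear protein-coding genes that rose it stood upstream of 5 of 460 (1.09%), and among those that fell upstream of 0 of 122. The 3 among the 22 were ICL1, PCK1 and the cytosolic malate dehydrogenase gene MDH2 (0.97 ± 0.21). All 3 rose, where 12 of all 22 did. SFC1, FBP1 and MLS1 also rose and had no match in this window. Control of these genes by Cat8 or Sip4 was not tested. Their stretches are ICL1 on chrV:287282-287332 (minus strand), MDH2 on chrXV:83290-83340 (minus strand) and PCK1 on chrXI:630652-630701 (plus strand).
ICL1: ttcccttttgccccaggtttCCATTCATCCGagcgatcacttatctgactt
MDH2: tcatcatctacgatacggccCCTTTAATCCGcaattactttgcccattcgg
PCK1: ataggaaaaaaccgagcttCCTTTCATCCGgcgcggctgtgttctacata

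Enzymes of glycolysis, most of which run in both directions, rose in 11 of 18 cases and none fell. Their median was 0.97 (0.77 without wild-type strain 1). TPI1, triose-phosphate isomerase, had 139 and 220 CPM in the mms2 deletion, against 38.2 and 67.6 CPM in the wild type (1.75 ± 0.32, adjusted p = 0.0152). TDH3, the main glyceraldehyde-3-phosphate dehydrogenase, had 638 and 968 CPM against 218 and 355 CPM (1.49 ± 0.29, adjusted p = 0.0191), PGK1 rose by 1.18 ± 0.24 and GPM1 by 1.23 ± 0.26. TDH3 shares much of its sequence with TDH2. Of 20 hexose transporter genes 3 rose and 0 fell, beside 8.54% higher and 2.09% lower over all tested genes. The median of the 20 was 0.21, and 0.07 without wild-type strain 1. The 3 were HXT6 and its near-identical neighbour HXT7 (1.97 ± 0.30 and 1.36 ± 0.32), which carry glucose with high affinity, and HXT3 (0.94 ± 0.20). HXT3, a low-affinity carrier, had 716 and 893 CPM in the mms2 deletion, against 411 and 426 CPM in the wild type. Fermentation genes were split, with 3 of 20 higher and 2 lower (median 0.31, and 0.12 without wild-type strain 1). Scaling by library totals turned this to 1 higher and 3 lower (median 0.15), beside 315 and 279 of all 6068 tested genes. ADH1, the main alcohol dehydrogenase, rose by 1.04 ± 0.25, ADH3 by 0.56 ± 0.13 and the acetyl-CoA synthetase gene ACS2 by 0.52 ± 0.12, while the aldehyde dehydrogenase gene ALD3 had 207 and 168 CPM in the mms2 deletion, against 469 and 417 CPM in the wild type (-1.24 ± 0.24, adjusted p = 0.0188) and ALD4 fell by 0.79 ± 0.21.

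**Figure D3:**
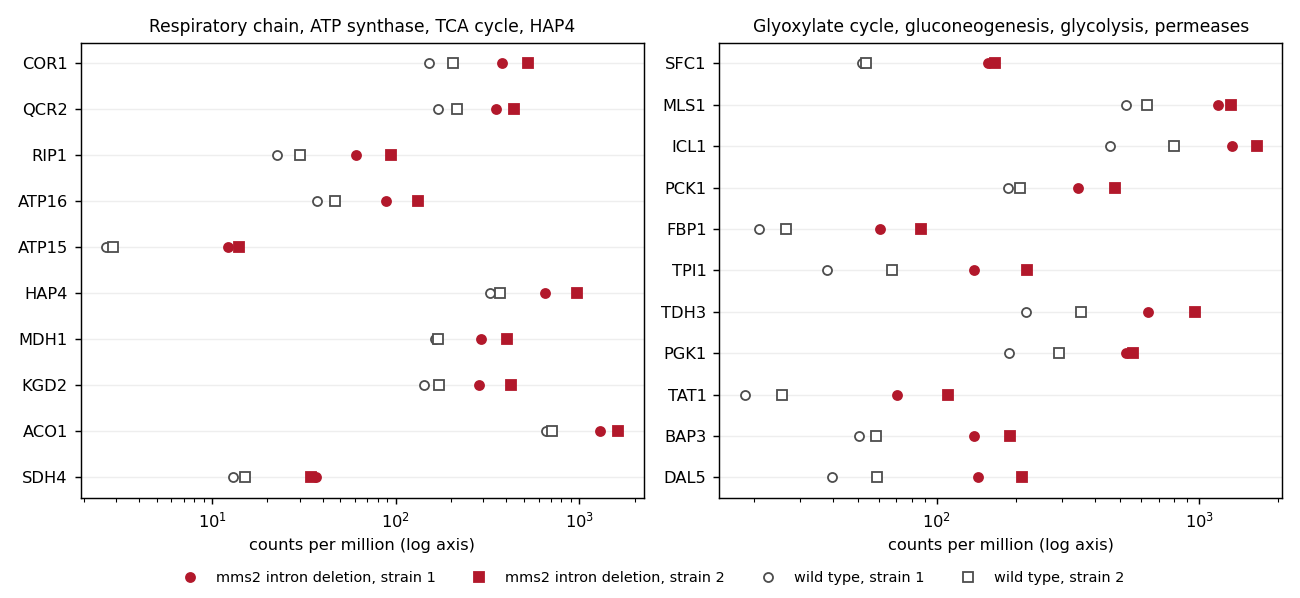
CPM (log axis) in the 4 libraries at 48 h for genes of respiration and the TCA cycle with HAP4 (left) and of the glyoxylate cycle, gluconeogenesis, glycolysis and amino acid and allantoate permeases (right), filled red for the mms2 intron deletion and open grey for the wild type. The genes drawn were picked among those called. In each of them both red points lie to the right of both open ones, as in 36.1% of all tested genes. For SFC1 and ATP15 the strains of a genotype nearly coincide.

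Uptake of amino acids and nitrogen compounds changed in both directions. Of 44 permease and nitrogen genes 8 rose and 2 fell (median 0.04), beside 8.54% higher and 2.09% lower over all tested genes (median 0.04). When scaled by library totals 5 rose and 5 fell (median -0.12), beside 315 and 279 of all 6068 tested genes (median -0.12). TAT1, a permease for tyrosine and branched-chain amino acids, had 70.5 and 110 CPM in the mms2 deletion, against 18.5 and 25.7 CPM in the wild type (2.01 ± 0.23, adjusted p = 0.0122). BAP3, a permease for branched-chain amino acids, had 139 and 190 CPM against 50.5 and 58.5 CPM (1.59 ± 0.26, adjusted p = 0.0139). DAL5, the allantoate permease, had 144 and 211 CPM against 39.9 and 59.1 CPM (1.83 ± 0.30, adjusted p = 0.0139). The 2 that fell also belong to the use of allantoin and urea: DAL4, the allantoin permease, had 6.52 and 4.11 CPM in the mms2 deletion, against 19.7 and 16.0 CPM in the wild type (-1.80 ± 0.34, adjusted p = 0.0163), and DUR3, the urea carrier, had 194 and 103 CPM against 303 and 326 CPM (-1.09 ± 0.27, adjusted p = 0.0334). The genes for allantoate and allantoin uptake therefore moved in opposite directions.

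Amino acid biosynthesis was higher in 10 of 66 genes (6 when scaled by library totals) and lower in 0. Over all tested genes 8.54% were higher and 2.09% lower, or 315 and 279 of 6068 when scaled by library totals. The median of the 66 genes for amino acid biosynthesis was 0.32, and 0.13 without wild-type strain 1. GCN4, the activator of these genes, had 336 and 488 CPM in the mms2 deletion, against 101 and 174 CPM in the wild type (1.58 ± 0.29, adjusted p = 0.0152), the branched-chain aminotransferase genes BAT1 and BAT2 rose by 1.06 ± 0.24 and 1.01 ± 0.21, and the serine hydroxymethyltransferase gene SHM1 by 0.93 ± 0.17. GCN4 is largely controlled at translation, which RNA counts do not measure. In sulfate assimilation and the methionine cycle 9 of 33 genes rose and 3 fell. Among those that rose were the S-adenosylmethionine synthetase gene SAM1 at 1.61 ± 0.28, the S-adenosylhomocysteine hydrolase gene SAH1 at 1.35 ± 0.27, the cystathionine beta-synthase gene CYS4 at 1.35 ± 0.25 and MET17 at 1.10 ± 0.23. The 3 that fell encode regulators of the pathway: MET32 (-1.33 ± 0.30), MET28 (-1.01 ± 0.27) and CBF1 (-0.67 ± 0.19). MET32 had 93.8 and 58.8 CPM in the mms2 deletion, against 228 and 153 CPM in the wild type.

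Genes that were lower were fewer and their changes were smaller. The 12 lowest, after DAL4, were DMC1, SPG1, MET32, ALD3, SLZ1, HBT1, PXA1, DUR3, CDC20, FUS2 and MET28, with log2 fold changes from -1.79 to -1.01. Over all tested genes 2.09% were lower and 8.54% higher. Stationary phase and hydrophilin genes, whose products protect dry or resting cells, fell in 4 of 27 cases and none rose. Their median was -0.50 (-0.45 without wild-type strain 1 and -0.28 without mms2 strain 2), and they took 1.20% and 0.916% of counts in the mms2 deletion against 1.56% and 1.67% in the wild type. The 4 were the hydrophilin gene SIP18, with 320 and 329 CPM in the mms2 deletion, against 685 and 564 CPM in the wild type (-0.94 ± 0.21, adjusted p = 0.0257), SPG1 (-1.36 ± 0.31), FMP16 (-0.82 ± 0.20) and DDR48 (-0.67 ± 0.15). SPG1 is required by resting cells kept at high temperature. The 3 trehalose and glycogen genes that fell, of 23, were PIG1 and PIG2 (-0.84 ± 0.21 and -0.84 ± 0.19), which resemble targeting subunits of the phosphatase Glc7, and GLC8 (-0.63 ± 0.17), a regulator of Glc7. None of that group rose.

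Transcripts of the peroxisomal transporter of long-chain fatty acids fell: PXA1 had 329 and 278 CPM in the mms2 deletion, against 723 and 570 CPM in the wild type (-1.09 ± 0.18, adjusted p = 0.0143), and PXA2, its partner in that transporter, was at -0.77 ± 0.18. Import itself was not measured. In the group of 33 peroxisome and beta-oxidation genes 3 fell, with PEX14 as the third, and 1 rose (PEX15, 0.82 ± 0.20). Over all tested genes 2.09% fell and 8.54% rose. HBT1, a partner of the ubiquitin-like protein Hub1 in polarized growth, had 482 and 386 CPM in the mms2 deletion, against 908 and 977 CPM in the wild type (-1.12 ± 0.21, adjusted p = 0.0164). The sporulation genes DMC1 and SLZ1 had 7.70 and 3.62 CPM and 19.9 and 20.4 CPM in the mms2 deletion, against 23.8 and 13.7 CPM and 51.2 and 40.3 CPM in the wild type. CDC20, an activator of the anaphase-promoting complex, was at -1.08 ± 0.22. FUS2, a gene of mating, was at -1.06 ± 0.27, and wild-type strain 1, which stood apart in mating type genes, was the highest library for it, at 28.2 CPM beside 15 CPM in wild-type strain 2 and 9.87 and 10.3 CPM in the mms2 strains.

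In the pathway of MMS2 itself no gene passed. Of 20 tested DNA damage tolerance genes 0 rose and 0 fell by edgeR (median -0.07), beside 10.6% called over all tested genes. By DESeq2 1 rose and 1 fell, beside 11.7% higher and 4.92% lower over all genes. The smallest adjusted p belonged to POL30, which encodes PCNA, at 5.73 and 8.51 CPM in the mms2 deletion, against 2.84 and 3.65 CPM in the wild type (1.13 ± 0.33, adjusted p = 0.0519), and REV7, a subunit of the mutagenic polymerase zeta, was at -1.01 ± 0.33 (adjusted p = 0.0756). Of 24 other DNA damage response genes 1 rose and 1 fell, beside 8.54% higher and 2.09% lower over all tested genes. RNR1, the large subunit of ribonucleotide reductase, rose by 1.17 ± 0.26 and the nucleotide excision repair gene RAD2 fell by 0.64 ± 0.18.

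Whether these differences belong to 48 h was tested directly, as the effect of the deletion at 48 h minus its effect in log phase. By edgeR 0 genes passed (0.0%), 568 had an unadjusted p under 0.05 (9.36%), and DESeq2 called 10, which is 0.73% of the 1370 genes it adjusted. In log phase the deletion had 842 genes higher and 809 lower than the wild type (27.2% called), from other libraries of the same strains. BAP3 had the smallest p of the test of the difference, at 1.59 ± 0.26 at 48 h and -0.28 in log phase (difference 1.88 ± 0.35, adjusted p = 0.502 by edgeR and 0.000538 by DESeq2). HBT1 was at -1.12 at 48 h and 0.20 in log phase (difference -1.32 ± 0.30, adjusted p = 0.502 by edgeR and 0.00845 by DESeq2). The snoRNA medians were 2.32 at 48 h and 1.48 in log phase, those of the glyoxylate and gluconeogenesis genes 0.82 and 0.39, those of the respiratory chain 0.98 and 0.48, and those of glycolysis 0.97 and 0.84.

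The mms2 deletion was also set against the ysf3 deletion at 48 h, a comparison that needs no wild-type library. By edgeR none passed (0.0%), 374 had an unadjusted p under 0.05 (6.16%), and DESeq2 called 11 (0.168%). SFC1 was nearest, with 156 and 167 CPM in the mms2 deletion, against 76.6 and 79.6 CPM in the ysf3 deletion (1.05 ± 0.14, adjusted p = 0.0854 by edgeR and 5.44e-06 by DESeq2). PCK1, with 346 and 478 CPM in the mms2 deletion, against 217 and 225 CPM in the ysf3 deletion (0.90 ± 0.17), and MLS1, with 1180 and 1320 CPM against 692 and 778 CPM (0.77 ± 0.15), had adjusted p = 0.489 and 0.491 by edgeR and 0.00543 by DESeq2. Against the same wild-type libraries, 151 genes were higher and 17 lower in the ysf3 deletion (2.77% called). The snoRNA median was 2.32 for the mms2 deletion and 2.04 for the ysf3 deletion, that of glycolysis 0.97 and 1.07, that of the glyoxylate and gluconeogenesis genes 0.82 and 0.31, and that of the respiratory chain 0.98 and 0.38, and these pairs share the wild-type libraries.

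**Figure D4:**
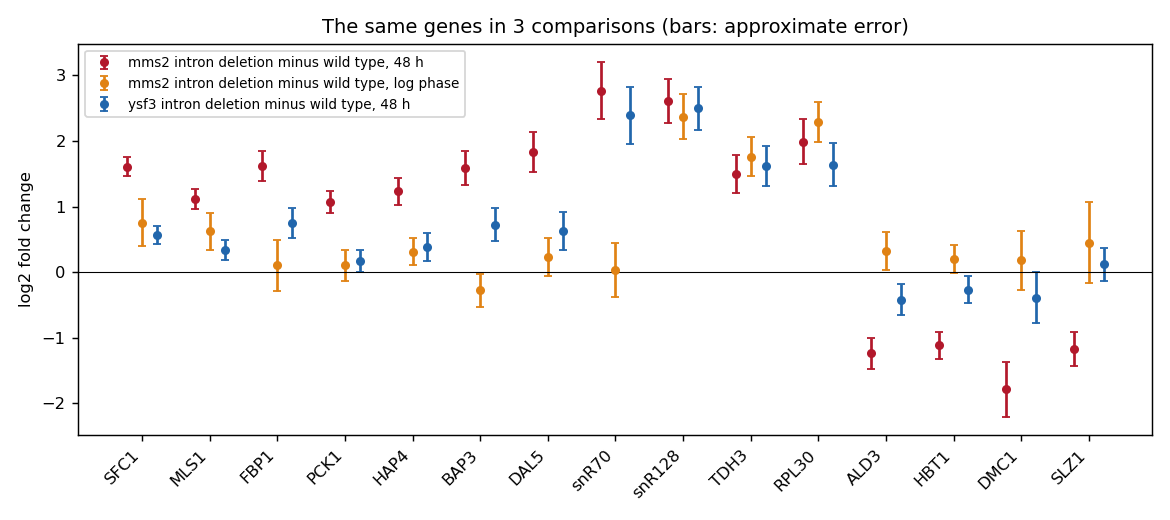
Log2 fold changes of 15 genes in 3 comparisons: the mms2 intron deletion minus the wild type at 48 h (red) and in log phase (orange), and the ysf3 intron deletion minus the wild type at 48 h (blue), with the approximate error as bars. snR128, TDH3 and RPL30 lie close together in the 3, while SFC1, PCK1, HAP4, DAL5, ALD3, HBT1 and SLZ1 lie farthest from 0 in the mms2 deletion at 48 h, and no difference between comparisons passed by edgeR.

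Gene length moved with the comparison. Among 5651 protein-coding genes the median log2 fold change was 0.78 in the 149 genes of up to 300 nt, 0.20 in those up to 500 nt, 0.09 up to 1000 nt and -0.03 above 3000 nt, and 22.1% of the shortest class rose, against 1.73% of the longest. Spearman's rho with the log2 fold change was -0.158 for length and 0.135 for GC content, a description across genes, which are not independent replicates. The genes that rose had a median length of 950 nt, those that fell 1185 nt and all 1254 nt. With the trends of length and GC content removed from each library, an alternative chosen after the data were seen, 478 genes were higher (7.88%) and 199 lower (3.28%), and 541 of the 645 called genes still passed. snoRNAs then had a median of 1.69 with 29 higher, small-subunit and large-subunit ribosomal protein genes 0.70 and 0.72, the respiratory chain 0.72 with 19 higher, the glyoxylate and gluconeogenesis genes 0.81 with 12 higher and glycolysis 0.90 with 11 higher. The genes of the mitochondrial genome then had a median of 0.16 with 4 higher, where they had 0.82 with 9 higher before, and the mitochondrial ribosomal protein genes a median of 0.02, where they had 0.18. The trend was fitted on protein-coding genes and extended to snoRNAs by their annotated length and GC content, and the part of length in the snoRNA result was not tested.

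**Figure D5:**
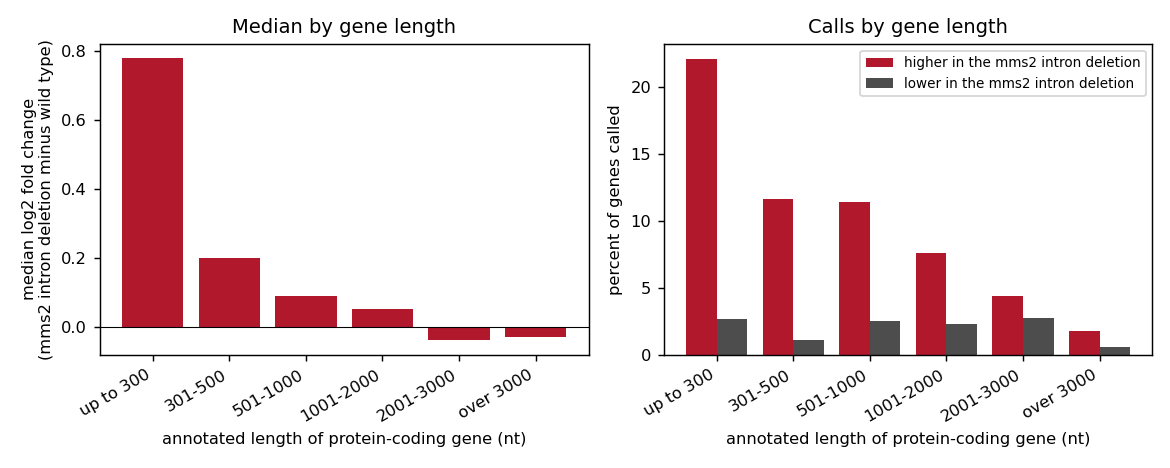
Median log2 fold change of the mms2 intron deletion against the wild type at 48 h (left) and percent of genes called higher (red) or lower (grey) (right) in 6 classes of annotated length of protein-coding genes. The median is 0.78 in the shortest class and between -0.04 and 0.20 in the other classes.

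The authors' deposited table for this comparison lists 179 genes, 158 higher and 21 lower, of which 18 are snoRNAs. All 179 had the direction found here and 170 passed here by edgeR. The authors' deposited table gives SFC1 at 1.46 on the log2 scale (adjusted p = 8.49e-13). The authors' deposited table of the mms2 and ysf3 deletions at 48 h lists 7 genes, 0 of which have the sign of the mms2 minus ysf3 change here, with SFC1 at -0.85 in the authors' deposited table. The direction of its fold is not stated, and with SFC1 at higher CPM in both mms2 libraries the signs are those of ysf3 over mms2.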

How the data were processed

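Total RNA was ribodepleted and fragmented, and libraries were made with ScriptSeq v2, per the labels' protocols. The deposited table holds read counts per gene for 12 libraries, and the authors used Bowtie2, HTSeq, DESeq2 and sacCer3, per the submitters' processing notes, with versions and the strand setting of counting not given in the sources used here. Overlapping, antisense and near-identical genes are therefore uncertain. The authors' deposited tables of comparisons hold log2 fold changes and adjusted p-values, and were used only where named.

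Genes were kept by filterByExpr (6068 of 7126, of which 562 had no count), scaled with TMM factors and tested with edgeR 4.0.16 (limma 3.58.1, R 4.3.3), 1 mean per group over 12 libraries, with Benjamini-Hochberg adjustment over all tested genes and called below an adjusted p of 0.05. The fit had a common dispersion of 0.0279 and 6 residual degrees of freedom. DESeq2 1.42.0 was an alternative. The fit was run on simulated data with known changes. Those data had the same dispersion for all genes and no difference between strains of a group. They therefore do not test how the calls depend on single strains. With 2 libraries against 2, no exact permutation test of single values could reach a threshold of 0.05, so none was used. Replicate libraries correlated across genes at r = 0.980 (mms2 deletion) and 0.984 (wild type) on the log2 scale.

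The members, gene lists, motifs and tests were chosen with earlier results of these data known. The classes of snoRNAs and the removal of length and GC trends were added after the data were seen. Named genes are MMS2, YSF3, the mating type and marker genes, the 12 highest and 12 lowest called genes with a mean of at least 10 CPM in the higher group and groups that do not overlap, and up to 4 members of each list with the smallest adjusted p. ALD4, CBF1, ICL1, MDH2, snR10, snR44 and the snoRNAs that did not pass were named after their values were seen. Of the identifiers 6169 were matched to RefSeq R64, 6048 by systematic name, and 388 genes had a near-identical copy (95% identity over 50% of the length). Alternatives were other scaling, filters, thresholds, libraries in the fit, a block for the strain number and each library left out in turn. The FPKM table was not used here.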

Additional observations from a re-analysis of the deposited data

How the results depend on the processing

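The count of genes changed in the mms2 deletion at 48 h was 645. It was 987 by DESeq2, 235 with only the 4 libraries compared, 4 against a fold of 1.5 (SFC1, TAT1, snR128 and snR45), 1 at an adjusted p under 0.01 and 0 without wild-type strain 1 in both phases (smallest adjusted p = 0.114). Leaving out 1 library at a time gave 0 to 795 genes: 0 without wild-type strain 1, 646 without wild-type strain 2, 795 without mms2 strain 1 and 1 without mms2 strain 2. With DESeq2 size factors (599), library totals (594), no filter (566), the 6 libraries of 48 h (816) or length and GC trends removed (677) the count stayed within 1.5 times. The replicate numbers are strain numbers with no stated pairing. Same-numbered libraries had residuals that correlated at 0.302, and the block by strain number left 390 genes. Genes whose effect differed from log phase numbered 0, or 10 by DESeq2, and 0 with each strain as a block. Genes that differed from the ysf3 deletion numbered 0, or 11 by DESeq2 and 2 with the 6 libraries of 48 h.

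MMS2 at 0.12 became -0.04 with length and GC trends removed, -0.05 with library totals, and -0.10 to 0.28 when 1 library was left out. Of 214 genes named by rule 153 passed. Other named genes that reversed, all uncalled, were snR8 (-0.66 with length and GC trends removed, 0.05 to 0.28 when 1 library was left out), snR84 (-0.34 to 0.25, and 0.11 without wild-type strain 1 in both phases), snR86 (-0.37 to 0.20), TRP1 (-0.02 with library totals, -0.05 to 0.31 when 1 library was left out) and, with a library left out, MF(ALPHA)1 (-4.21 to 0.57), RDN37-1 (-12.33 to 0.89), RDN37-2 (-9.49 to 2.01), STE6 (-0.31 to 1.02) and ASG7 (-0.14 to 1.33). Without wild-type strain 1 in both phases MF(ALPHA)1 was at 0.56, RDN37-1 at 0.89, RDN37-2 at 2.01, STE6 at -0.31 and ASG7 at -0.15. The cause was not tested. The alternatives without a wild-type or mms2 library assume that the lone library varies like the other groups. The shallowest libraries held 4871513 and 5051438 counts, and most C/D snoRNAs under 110 nt had too few counts to be tested.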

Other observations

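Other gene groups are read beside 8.54% higher and 2.09% lower over all tested genes. When scaled by library totals they are read beside 315 higher and 279 lower of 6068. In phosphate uptake 4 of 23 genes rose and 0 fell, led by the high-affinity phosphate transporter gene PHO84, with 548 and 648 CPM in the mms2 deletion, against 202 and 308 CPM in the wild type (1.23 ± 0.23, adjusted p = 0.0163 by edgeR). Of 15 zinc and copper genes 5 rose and 0 fell, among them the metallothionein-like gene CRS5, with 12.8 and 17.1 CPM against 1.70 and 4.34 CPM (2.19 ± 0.51, adjusted p = 0.0286), and ZPS1 (1.14 ± 0.25). Of 32 oxidative stress genes 7 rose and 0 fell, with the cytosolic thioredoxin gene TRX2 at 5.13 and 10.1 CPM in the mms2 deletion, against 0.756 and 1.57 CPM in the wild type (2.60 ± 0.47, adjusted p = 0.0153) and the superoxide dismutase gene SOD1 at 1.14 ± 0.24. The mitochondrial chaperonin gene HSP10 rose by 2.30 ± 0.37, while its partner HSP60 was at 0.49 ± 0.15 and did not pass (adjusted p = 0.0588). None of 28 iron genes passed by edgeR. When scaled by library totals, 1 phosphate gene, 3 zinc and copper genes and 2 oxidative stress genes rose and 0 of these fell.

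Of 45 cell wall genes 3 rose, a share below that of all tested genes: the glucanosyltransferase gene GAS1 (1.62 ± 0.26), with 112 and 177 CPM in the mms2 deletion, against 39.5 and 54.2 CPM in the wild type, PST1 (1.44 ± 0.25) and CWP2 (1.66 ± 0.36). Of 27 ergosterol genes 4 rose and 0 fell, with the last enzyme of the pathway, ERG4, at 46.4 and 59.1 CPM against 20.2 and 27.1 CPM (1.14 ± 0.17, adjusted p = 0.0139). Of 41 autophagy and vacuole genes 6 rose and 2 fell (2 and 4 when scaled by library totals), with the vacuolar protease genes PEP4 at 1.29 ± 0.28 and PRC1 at 0.80 ± 0.17. Of 24 thiamine and biotin genes 3 rose and 3 fell, or 0 and 3 when scaled by library totals. The biotin genes BIO2 and BIO3 fell by 0.76 ± 0.12 and 0.49 ± 0.13, and the thiamine genes THI4 and THI7 rose by 1.18 ± 0.31 and 0.77 ± 0.22. Of 40 regulators of stress and glucose responses HAP4, the cyclic AMP phosphodiesterase gene PDE2 (1.11 ± 0.26) and MSN4 (0.64 ± 0.18) rose and 0 fell. Of 11 histone genes 3 rose, led by HTB2 (1.53 ± 0.38), or 1 rose and 1 fell when scaled by library totals, and of 38 proteasome genes 1 fell, SEM1 (-0.84 ± 0.20), or 4 fell when scaled by library totals.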
